A study of Mus musculus with 2 samples.

Results

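The collagen chains are the 42 protein-coding genes of the count table whose mouse symbol is Col, a number, the letter a and a number, such as Col1a1. They were taken by symbol from GENCODE mouse release M21, out of 34745 genes in the table, and Col17a1 and Col7a1 were left out by that rule. RNA was sequenced from mouse ear skin in 2 libraries, 1 from KAT8 cKO mice and 1 from WT mice. KAT8 is a histone acetyltransferase and cKO usually stands for conditional knockout. The sources used here do not give the cell type or promoter behind the knockout, the strain, age and sex of the animals, or how many animals went into a library. Ears of both genotypes had been treated each day for 3 days with 30 mg of a 5% imiquimod cream, which causes a psoriasis-like inflammation of mouse skin, and were collected on day 4. Untreated skin was not analysed here. With 1 library per genotype there was no spread between animals to test against, so every difference describes these 2 libraries.

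Collagens are secreted matrix proteins built from 3 chains wound around each other, which requires a glycine at a fixed spacing of 1 residue in 3. Fibrillar collagens form the cables of dermis and cartilage, and FACIT collagens (fibril-associated collagens with interrupted helices) sit on the surface of these cables. Type IV collagen forms the sheet of basement membranes under epithelia and around vessels, muscle and fat cells, and type VI forms beaded filaments close to cells. In skin, fibroblasts make most fibrillar collagen, and the ear also holds a plate of elastic cartilage, whose fibrils are made of types II, IX and XI.

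The classes differ in gene structure as well as in tissue. Glycine codons are GGN, so a helix shows in the coding sequence as a run of GGN at 1 codon in 3. The longest such run had 216 to 344 glycine codons in the 8 fibrillar chains, and 338 or 339 in Col2a1, Col11a1 and Col11a2 of cartilage. It had 30 to 66 in the 8 basement membrane chains, whose helices were broken into 11 to 27 runs of at least 5. The 3 type IX chains each had a longest run of 113. Many helix exons are 54 bases long and code for 6 such units. There were 21 to 33 coding exons of 54 bases in the fibrillar genes, 1 to 3 in the basement membrane genes, and none in Col8a1, Col8a2 and Col10a1, which have 2 coding exons each. The first coding exon of 54 bases with 6 glycine codons in step is printed for 8 chains on which the results below turn, to show the unit that the classes share. Sequences and exon numbers are those of GENCODE M21 transcripts (GRCm38, 5′ to 3′ on the coding strand), with the glycine codons of the 1-in-3 run in capitals. Glycine codons out of step with that run, as in Col1a1, Col12a1 and Col14a1, are in lower case.
Col1a1 exon 8 (chr11:94939904-94939957, plus strand): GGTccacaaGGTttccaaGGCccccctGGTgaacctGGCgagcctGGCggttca
Col3a1 exon 6 (chr1:45325360-45325413, plus strand): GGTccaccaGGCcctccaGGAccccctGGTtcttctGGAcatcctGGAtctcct
Col2a1 exon 6 (chr15:97998545-97998598, minus strand): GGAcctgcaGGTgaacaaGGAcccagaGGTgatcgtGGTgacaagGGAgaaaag
Col9a1 exon 11 (chr1:24202014-24202067, plus strand): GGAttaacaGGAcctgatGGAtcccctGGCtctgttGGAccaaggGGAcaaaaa
Col12a1 exon 55 (chr9:79614349-79614402, minus strand): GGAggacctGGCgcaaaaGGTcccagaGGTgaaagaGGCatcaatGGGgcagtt
Col14a1 exon 37 (chr15:55467960-55468013, plus strand): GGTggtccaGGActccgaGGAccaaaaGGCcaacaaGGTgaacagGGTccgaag
Col4a1 exon 7 (chr8:11245211-11245264, minus strand): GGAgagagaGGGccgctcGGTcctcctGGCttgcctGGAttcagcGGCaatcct
Col4a6 exon 13 (chrX:141216444-141216497, minus strand): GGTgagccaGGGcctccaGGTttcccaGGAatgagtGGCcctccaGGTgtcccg
Of the genes shown, Col1a1, Col2a1, Col9a1, Col12a1 and Col4a6 were at least 2-fold higher in the KAT8 cKO library, Col3a1 and Col4a1 were close to equal, and Col14a1 was lower.

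The libraries held 13727524 counts on genes in KAT8 cKO skin and 12179608 in WT skin. Counts were scaled by library total and trimmed mean of M values (TMM) factors, and are given as counts per 1000000 (CPM). The log2 ratio is that of CPM + 1 in KAT8 cKO over WT skin, and a gene counted as measured with at least 1 CPM in either library. The targeted gene went against the knockout label, since Kat8 had 351 counts in the library labelled KAT8 cKO and 219 in the library labelled WT, a ratio of 1.27 (1.07 to 1.51). Its exons overlap those of Prss8, and which of its exons were deleted is not known here. KAT8 cKO skin below means the library labelled so, and each direction rests on that label. The libraries also differed in sex-linked RNA, with Eif2s3y of the Y chromosome at 838 counts in KAT8 cKO skin and 0 in WT skin. Sex and genotype therefore cannot be told apart for any chain below. Keratinocyte markers, which define skin, summed to 29938 CPM in KAT8 cKO skin and 29219 CPM in WT skin (median log2 ratio 0.08 over 10 genes). Krt15 of basal cells was higher, and Krt1 and Krt10 of upper layers were lower. The other 7 stayed within 2-fold, among them Krt5 and Krt14, also of basal cells, with ratios of 1.47 and 0.96. Skeletal muscle markers summed to 3905 CPM in KAT8 cKO skin and 18958 CPM in WT skin, with all 16 lower, and none of these was at 0 counts in either library. Adipocyte markers had a median log2 ratio of -1.85 with 9 of 14 lower and 2 higher, but summed to 5711 CPM in KAT8 cKO skin and 5123 CPM in WT skin. Most of the KAT8 cKO sum came from the fatty acid desaturase gene Scd1, and without it the other 13 summed to 699 CPM in KAT8 cKO skin and 3667 CPM in WT skin. In bulk tissue, fewer cells of a type and less RNA per cell cannot be told apart.

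Collagen RNA was higher in the library labelled KAT8 cKO in most classes, by amounts that differed between them. The 42 chains together had 5396 CPM in KAT8 cKO skin and 3791 CPM in WT skin, a ratio of 1.42 (95% interval 1.41 to 1.44). They held 0.570% of all counts in KAT8 cKO skin and 0.359% in WT skin. These shares leave out the TMM factor and so differ by more than the ratio. Of 38 measured chains, 14 were at least 2-fold higher and 1 was at least 2-fold lower in KAT8 cKO skin. The same lines were passed by 4.56% of all 15240 measured genes on the higher side and by 8.63% on the lower side. The median log2 ratio of the measured chains was 0.87, beside 0.01 for all measured genes, and 35 of the 38 lay above 0. Intervals here and below are exact (Clopper-Pearson) and cover counting error only. By them, 27 of the 42 chains were above equality, 2 (Col14a1 and Col4a1) below it, and 13 spanned it.

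The filter matters for the low chains. It was passed in both libraries by 33 chains, of which 13 were higher and 1 lower, and in KAT8 cKO skin alone by Col4a6, Col24a1, Col4a3, Col6a6 and Col25a1. Another 4 chains passed in neither, namely Col19a1 with 1 count in KAT8 cKO skin and 0 in WT skin, Col6a5 with 4 counts in KAT8 cKO skin and 0 in WT skin, Col6a4 with 9 in KAT8 cKO skin and 0 in WT skin, and Col26a1 with 4 in each. Without the TMM factor the median log2 ratio of all measured genes moved to 0.16, and 19 chains were past 2-fold on the higher side and 0 on the lower side, while 964 genes (6.33%) were higher and 1056 (6.94%) lower. With the factor, 695 genes were higher and 1315 lower.

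**Figure D1:**
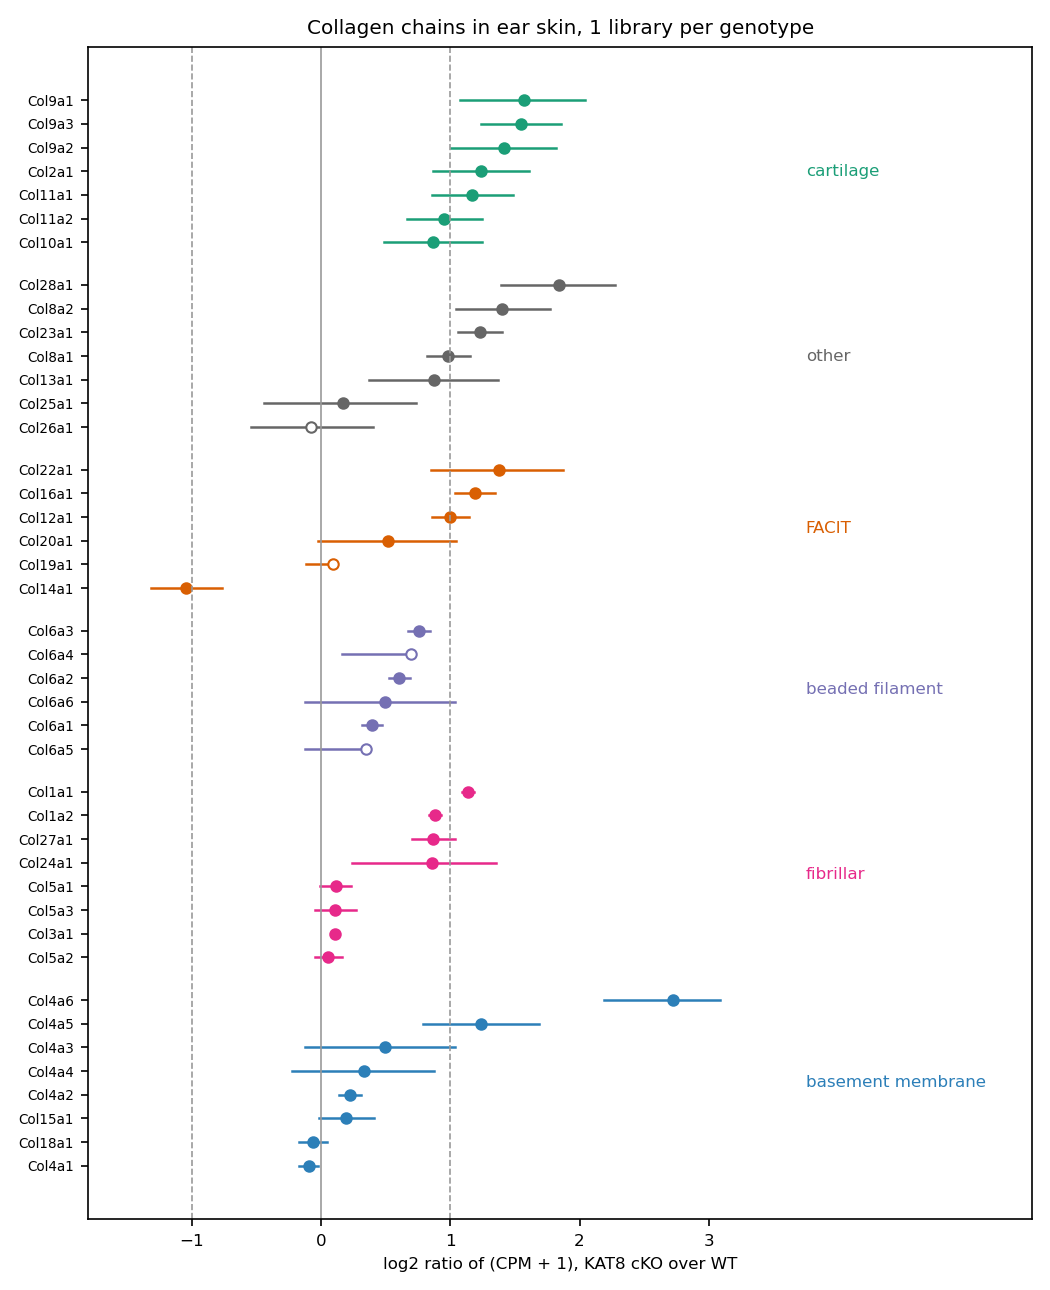
Log2 ratio of CPM + 1 (x axis, KAT8 cKO over WT) of the 42 collagen chains by class. Points are chains, bars are exact 95% counting intervals, open points are the 4 chains that were not measured, and dashed lines mark a 2-fold difference. The cartilage chains lie between 0.86 and 1.57, while Col4a6 stands at 2.72 and Col14a1 at -1.04.

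The fibrillar collagens split by type. Both chains of type I collagen, the main fibril of dermis, were about double in KAT8 cKO skin, while type III and type V were close to equal in the 2 libraries. Col1a1 (ENSMUSG00000001506, chr11:94936224-94953042 of GRCm38, plus strand) had 13407 counts or 924 CPM in KAT8 cKO skin and 4826 counts or 419 CPM in WT skin, a ratio of 2.21 (interval 2.13 to 2.28). Col1a2, the partner chain of the type I molecule, had 927 CPM in KAT8 cKO skin and 502 CPM in WT skin, a ratio of 1.85 (1.79 to 1.90) that stayed short of 2-fold. Both type I intervals lay far from equality. Col3a1, which encodes the only chain of type III, had 20612 counts or 1420 CPM in KAT8 cKO skin and 15186 counts or 1318 CPM in WT skin, a ratio of 1.08 (1.06 to 1.10). The type V chains, which start and limit the growth of type I fibrils, had ratios of 1.08 for Col5a1, 1.04 for Col5a2 and 1.08 for Col5a3, each with an interval that held 1. Their levels were 91.0, 112 and 52.2 CPM in KAT8 cKO skin and 84.1, 108 and 48.3 CPM in WT skin, in the same order.

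The other fibrillar chains, Col27a1 and Col24a1, were higher by a similar or larger ratio. Col27a1, which is also made in cartilage, had 66.4 CPM in KAT8 cKO skin and 35.8 CPM in WT skin, a ratio of 1.85 (1.65 to 2.08). Col24a1 had 30 counts in KAT8 cKO skin and 8 in WT skin, a ratio of 2.98 (1.33 to 7.51) that the added 1 CPM reduces to a log2 ratio of 0.86. The 8 fibrillar chains were all above 0 on the log2 scale, but only Col1a1 passed 2-fold. Their median log2 ratio of 0.48 falls in the gap between 2 groups of 4 chains, and so it moved to 0.11 with a filter of 5 CPM, which drops Col24a1, and to 0.87 with the type II and XI chains added.

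Counts per length allow chains to be set against each other within a library, where the scaling cancels. Levels below are CPM per kb of the transcript with the longest coding sequence. Col3a1 had 255 CPM per kb in KAT8 cKO skin and 237 in WT skin, Col1a2 had 173 in KAT8 cKO skin and 93.9 in WT skin, and Col1a1 had 156 in KAT8 cKO skin and 70.6 in WT skin. On this scale these 3 chains were the highest of all 42 in both libraries. Lengths over all annotated exons instead put Col6a1 above Col1a2 in WT skin, at 44.0 and 40.4 CPM per kb. Col3a1 was 1.64 times as abundant per kb as Col1a1 in KAT8 cKO skin (1.60 to 1.67) and 3.35 times in WT skin (3.25 to 3.46). The ratio of Col1a1 to Col1a2 per kb was 0.90 in KAT8 cKO skin (0.88 to 0.92) and 0.75 in WT skin (0.72 to 0.78). With lengths over all annotated exons, Col3a1 to Col1a1 was 1.03 in KAT8 cKO skin and 2.10 in WT skin, and Col1a1 to Col1a2 was 1.89 in KAT8 cKO skin and 1.58 in WT skin. The size of such a ratio thus depends on the transcript assumed, while its fold difference between the libraries does not.

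**Figure D2:**
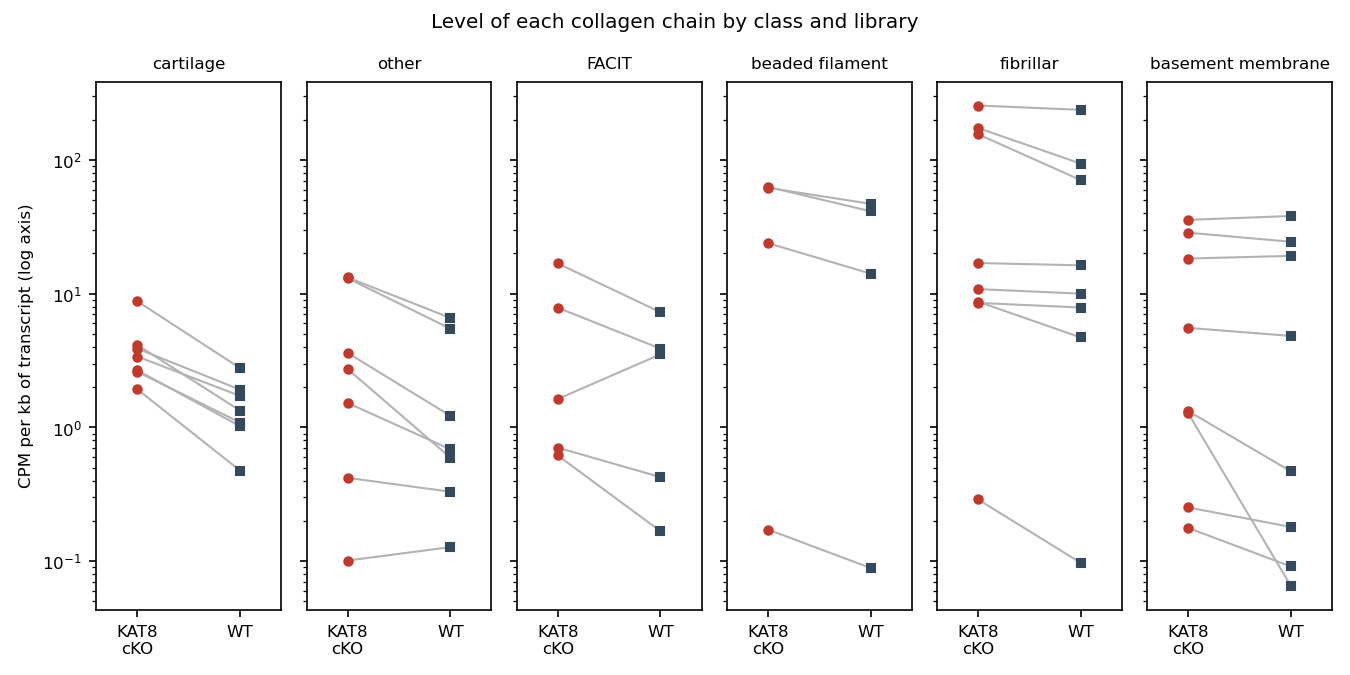
CPM per kb of transcript (y axis, log scale) of the collagen chains in the KAT8 cKO library (circles) and the WT library (squares), by class, with a line for each chain. The 3 chains with 0 counts in WT skin are not drawn. Fibrillar chains reach the highest levels, the cartilage lines all slope down toward WT, and 1 FACIT line, Col14a1, slopes up.

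Genes that fold collagen stayed within 2-fold, while some that cut and link it did not. Of 21 genes for collagen folding and modification, 0 were past 2-fold in either direction, and their median log2 ratio was -0.10, or 0.06 without the TMM factor. Past the same line were 4.56% of all 15240 measured genes on the higher side and 8.63% on the lower side. The counts of this and the later short lists are to be read beside those shares. The group's 2 most abundant members were P4hb, a subunit of prolyl 4-hydroxylase, at 884 CPM in KAT8 cKO skin and 941 CPM in WT skin, and Ppib, a prolyl isomerase, at 244 CPM in KAT8 cKO skin and 233 CPM in WT skin. Exons of Ppib, and of Tgm2, Ddr1 and Lamc3 below, overlap those of other genes. Of 13 measured genes for propeptide cleavage and crosslinking, 3 were higher and 1 lower (median 0.30). Loxl4, a lysyl oxidase, had 63.4 CPM in KAT8 cKO skin and 14.1 CPM in WT skin, a ratio of 4.51 (3.81 to 5.36). Adamts14, a procollagen N-proteinase, had 39.0 CPM in KAT8 cKO skin and 13.5 CPM in WT skin (2.90-fold), and Pcolce2, an enhancer of C-propeptide removal, 72.8 CPM in KAT8 cKO skin and 30.6 CPM in WT skin (2.38-fold). The transglutaminase gene Tgm2 went the other way with 124 CPM in KAT8 cKO skin and 286 CPM in WT skin.

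Proteins that bind fibrils were mixed. Of 16 measured, 2 were higher and 1 lower, with a median log2 ratio of 0.25. Postn, which encodes the matrix protein periostin, had 531 CPM in KAT8 cKO skin and 150 CPM in WT skin (3.54-fold), and the fibril-binding proteoglycan gene Fmod had 105 CPM in KAT8 cKO skin and 34.2 CPM in WT skin (3.06-fold). Ogn, another small proteoglycan of fibrils, had 12.2 CPM in KAT8 cKO skin and 32.0 CPM in WT skin. Of 10 measured collagen receptors, 1 was higher and 1 lower, with a median log2 ratio of 0.27. The kinase gene Ddr1, common in epithelia, was 2.66-fold higher (192 CPM in KAT8 cKO skin and 72.3 CPM in WT skin). The integrin gene Itga11 of fibroblasts had 26 counts in KAT8 cKO skin and 54 in WT skin. Fibroblast markers, from the cells that make type I collagen, were mixed, with 1 of 14 higher, 3 lower, a median of -0.28 and a sum of 1470 CPM in KAT8 cKO skin and 1582 CPM in WT skin. Their part in the type I values was not tested. Thy1 was 2.48-fold higher, at 215 CPM in KAT8 cKO skin and 86.7 CPM in WT skin, while Dpt had 42.4 CPM in KAT8 cKO skin and 123 CPM in WT skin. Mfap5 had 9.44 CPM in KAT8 cKO skin and 29.0 CPM in WT skin, and Pi16 had 54.2 CPM in KAT8 cKO skin and 116 CPM in WT skin.

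All 7 cartilage collagens were higher in KAT8 cKO skin, 5 of them by at least 2-fold, with ratios from 1.97 to 4.04. The 3 chains of type IX, which coats type II fibrils, had the highest ratios of the class. Together the 7 chains had 1590 counts or 110 CPM in KAT8 cKO skin and 494 counts or 42.9 CPM in WT skin, a ratio of 2.56 (2.31 to 2.83), and their median log2 ratio was 1.24. Col9a1 had 107 counts in KAT8 cKO skin and 21 in WT skin (4.04-fold, 2.52 to 6.80). Col9a3 had 362 counts in KAT8 cKO skin and 91 in WT skin (3.16-fold, 2.50 to 4.02), and an exon of it overlaps one of Tcfl5. Col9a2 had 175 counts in KAT8 cKO skin and 45 in WT skin (3.09-fold, 2.21 to 4.39). The 3 intervals of type IX overlap one another.

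The fibril-forming chains of cartilage came next. Col2a1, which encodes the main cartilage fibril, had 198 counts in KAT8 cKO skin and 60 in WT skin (2.62-fold, 1.95 to 3.56). Col11a1 and Col11a2, chains of the fibril core, had 290 and 304 counts in KAT8 cKO skin and 96 and 119 in WT skin, ratios of 2.40 (1.90 to 3.05) and 2.03 (1.64 to 2.53). Col11a2 was just under the 2-fold line with the added 1 CPM (log2 ratio 0.95). Col10a1, the short chain made by hypertrophic chondrocytes, had 154 counts in KAT8 cKO skin and 62 in WT skin (1.97-fold, 1.46 to 2.69), and its exons overlap those of Nt5dc1. Proportions between these chains, which do not depend on the scaling, can be set beside each other. Col9a2 to Col9a3 per kb was 0.47 in KAT8 cKO skin (0.39 to 0.57) and 0.48 in WT skin (0.33 to 0.70), and Col11a1 to Col11a2 was 0.67 in KAT8 cKO skin (0.57 to 0.79) and 0.57 in WT skin (0.43 to 0.75). Col2a1 to Col11a2 was 0.69 in KAT8 cKO skin (0.57 to 0.83) and 0.53 in WT skin (0.38 to 0.73). The intervals of KAT8 cKO and WT skin overlap for each of these pairs.

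Cartilage genes outside the collagens were mixed. Among the 11 measured, 3 passed 2-fold on the higher side and 0 on the lower side, with 8 above 0 and 3 below and a median log2 ratio of 0.46, or 0.28 with no filter, and none of the 14 listed was at 0 in either library. The transcription factor gene Sox9, which drives Col2a1 in chondrocytes and is also active in hair follicles, had 48.8 CPM in KAT8 cKO skin and 10.9 CPM in WT skin (4.46-fold). The chondromodulin gene Cnmd had 231 counts in KAT8 cKO skin and 47 in WT skin, and Snorc, a cartilage proteoglycan gene, had 155 in KAT8 cKO skin and 44 in WT skin. Acan, Comp and Sox6 are added here after their values were seen. Acan, which encodes the main cartilage proteoglycan, had 114 CPM in KAT8 cKO skin and 82.5 CPM in WT skin (1.38-fold). Comp, a matrix protein gene of cartilage and tendon, had 121 counts in KAT8 cKO skin and 148 in WT skin (a ratio of 0.65, 0.51 to 0.83), and Sox6, a partner of Sox9, had 243 counts in KAT8 cKO skin and 297 in WT skin (0.65, 0.55 to 0.77). The whole list summed to 832 CPM in KAT8 cKO skin and 671 CPM in WT skin (1.24-fold, 1.21 to 1.28), and without Cytl1, which held most of it, to 278 CPM in KAT8 cKO skin and 190 CPM in WT skin (1.46-fold, 1.39 to 1.54), beside 2.56-fold for the cartilage collagens. Whether the specimens held different amounts of cartilage was not tested.

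**Figure D3:**
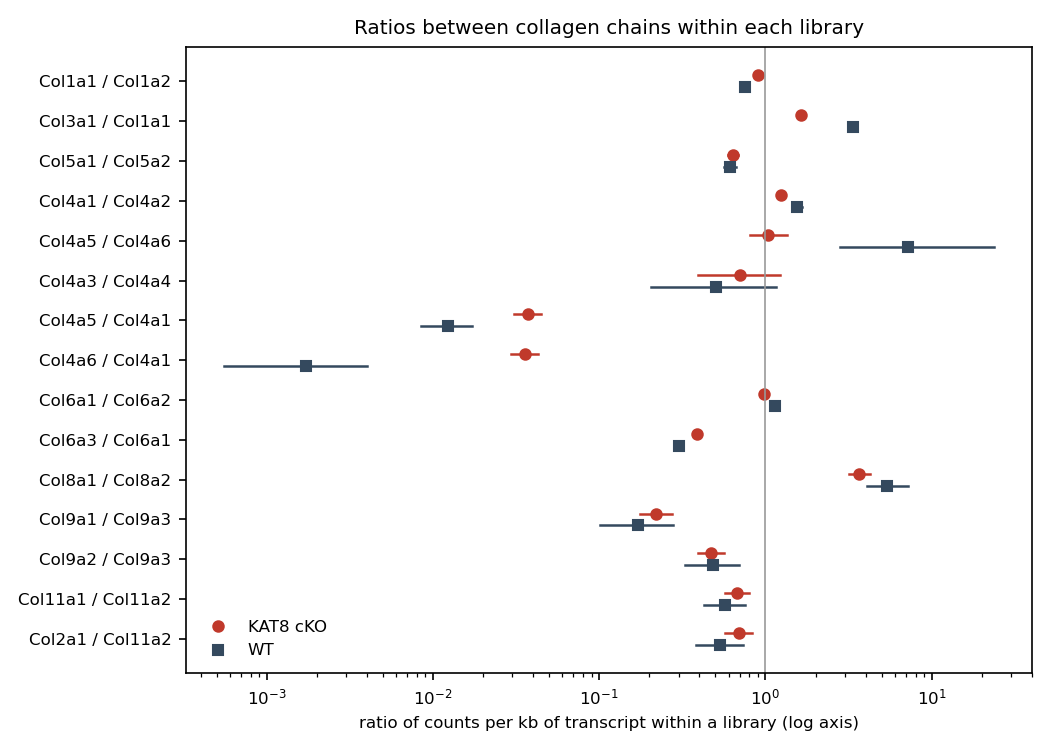
Ratio of counts per kb of transcript between named collagen chains (x axis, log scale) within the KAT8 cKO library (circles) and the WT library (squares), with exact 95% counting intervals. The libraries lie close together for Col9a2 to Col9a3, and far apart for Col4a5 to Col4a6, at 1.04 in KAT8 cKO skin and 7.19 in WT skin.

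Basement membrane collagens held a pair that was close to equal and a pair that was at least 2-fold higher in KAT8 cKO skin, Col4a6 by far the more. Col4a1 and Col4a2 make the network found in nearly all basement membranes, and Col4a5 and Col4a6 make a second network known from epidermal and smooth muscle basement membranes. Col4a1 had 3423 counts or 236 CPM in KAT8 cKO skin and 2904 counts or 252 CPM in WT skin, a ratio of 0.94 (0.89 to 0.98). Col4a2 had 2677 counts or 184 CPM in KAT8 cKO skin and 1817 counts or 158 CPM in WT skin, a ratio of 1.17 (1.10 to 1.24). The log2 ratio of Col4a1 was -0.10, and 0.06 without the TMM factor, so its direction depends on the scaling. Col4a1 to Col4a2 per kb was 1.25 in KAT8 cKO skin (1.18 to 1.31) and 1.56 in WT skin (1.47 to 1.65), with intervals that did not overlap. Col4a6 had 123 counts in KAT8 cKO skin and 5 in WT skin, a ratio of 19.5 (8.15 to 61.2), the largest among the measured collagens. Its log2 ratio was 2.72, and 4.01 with 0.1 CPM added in place of 1. Col4a5 had 121 counts in KAT8 cKO skin and 34 in WT skin, a ratio of 2.83 (1.92 to 4.26).

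In KAT8 cKO skin the 2 minor chains did not differ per kb beyond counting error, and in WT skin they did. Col4a5 had 1.33 CPM per kb and Col4a6 1.27 in KAT8 cKO skin, against 0.470 and 0.0653 in WT skin. The ratio of Col4a5 to Col4a6 was 1.04 in KAT8 cKO skin (0.80 to 1.35) and 7.19 in WT skin (2.80 to 23.6). Relative to Col4a1, Col4a6 was 0.0358 in KAT8 cKO skin (0.0296 to 0.0428) and 0.0017 in WT skin (0.00056 to 0.0040), and Col4a5 was 0.0372 in KAT8 cKO skin (0.0308 to 0.0446) and 0.0123 in WT skin (0.0085 to 0.0173). These within-library ratios do not depend on the scaling. Col4a3 and Col4a4, which with Col4a5 make the network of the kidney glomerulus, were low in both libraries. Col4a3 had 22 counts in KAT8 cKO skin and 9 in WT skin and Col4a4 had 37 in KAT8 cKO skin and 21 in WT skin, with intervals of the ratio that held 1.

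**Figure D4:**
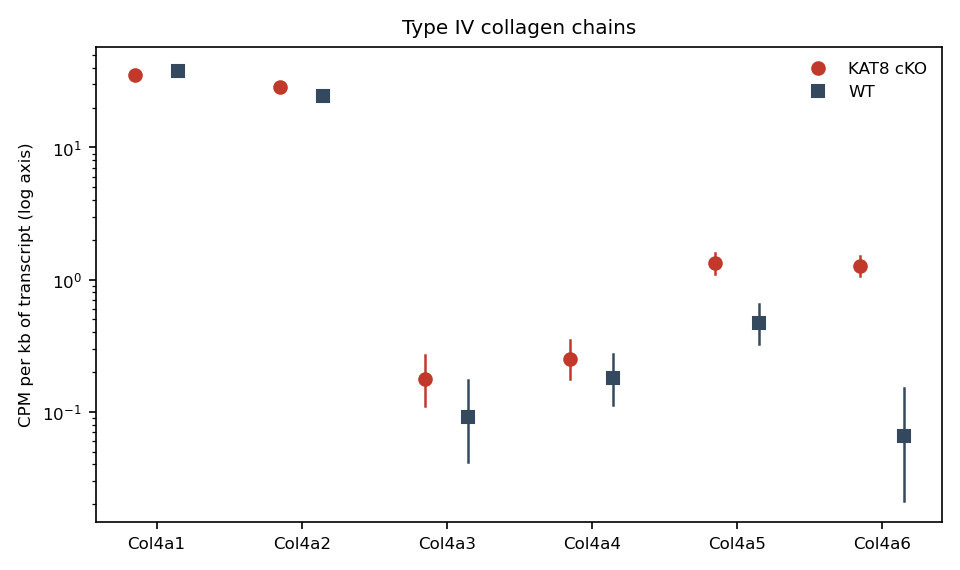
CPM per kb of transcript (y axis, log scale) of the 6 type IV collagen chains in the KAT8 cKO library (circles) and the WT library (squares), with exact 95% Poisson counting intervals. Col4a1 and Col4a2 each differ little between the libraries, and Col4a6 is at 1.27 in KAT8 cKO skin and 0.0653 in WT skin.

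The type IV genes lie head to head in pairs. The start sites of Col4a1 and Col4a2 on chromosome 8 are 21 bases apart, and those of Col4a5 and Col4a6 on chromosome X are 1343 bases apart. Col4a3 and Col4a4 on chromosome 1 are also head to head, with Col4a3 running from 82586921 (plus strand) and Col4a4 from 82586849 (minus strand). The windows from 250 bases before to 50 after each start are printed for the pairs on chromosomes 8 and X, because these 2 pairs differ in their ratios between the libraries. Sequences are RefSeq, build GRCm38.p6, 5′ to 3′ on the gene's strand, with each CCAAT and each GGGCGG motif, on either strand, in capitals.
Col4a1 (chr8:11312777-11313076, minus strand): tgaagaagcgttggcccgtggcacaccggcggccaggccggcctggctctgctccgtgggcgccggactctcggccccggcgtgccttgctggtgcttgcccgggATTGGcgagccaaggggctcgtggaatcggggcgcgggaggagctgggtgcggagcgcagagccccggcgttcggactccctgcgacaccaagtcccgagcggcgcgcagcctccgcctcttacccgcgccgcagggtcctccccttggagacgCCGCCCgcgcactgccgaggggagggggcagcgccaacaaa
Col4a2 (chr8:11312555-11312854, plus strand): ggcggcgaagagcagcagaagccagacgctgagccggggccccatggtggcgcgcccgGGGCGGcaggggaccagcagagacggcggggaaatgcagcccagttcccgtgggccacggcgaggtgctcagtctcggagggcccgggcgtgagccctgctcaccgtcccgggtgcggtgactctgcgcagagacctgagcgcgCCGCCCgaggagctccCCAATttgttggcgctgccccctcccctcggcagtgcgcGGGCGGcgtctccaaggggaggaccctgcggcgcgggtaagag
Col4a5 (chrX:141475169-141475468, plus strand): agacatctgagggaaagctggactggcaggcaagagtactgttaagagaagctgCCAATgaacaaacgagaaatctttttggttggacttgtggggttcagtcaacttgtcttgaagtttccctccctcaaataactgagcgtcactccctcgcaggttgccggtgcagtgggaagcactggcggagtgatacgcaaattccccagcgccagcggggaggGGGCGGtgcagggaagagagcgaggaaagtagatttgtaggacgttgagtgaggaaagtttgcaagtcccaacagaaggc
Col4a6 (chrX:141474027-141474326, minus strand): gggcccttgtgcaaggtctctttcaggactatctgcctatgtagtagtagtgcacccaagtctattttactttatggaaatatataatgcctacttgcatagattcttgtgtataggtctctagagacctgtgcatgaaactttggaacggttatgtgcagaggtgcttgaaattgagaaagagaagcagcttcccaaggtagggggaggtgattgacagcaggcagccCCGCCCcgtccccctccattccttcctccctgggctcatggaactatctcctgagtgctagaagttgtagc
All 4 printed windows held a GGGCGG motif, which occurred in 35.7% of 32851 windows of this length and in 22 of 36 windows of 33 collagen chains. CCAAT was in the windows of Col4a1, Col4a2 and Col4a5 but not in that of Col4a6, and occurred in 37.4% of all windows and 11 of the 36. TATAAA, searched on both strands, was in none of these 4, in 13.6% of all windows and in 4 of the 36. In the 4 printed windows no motifs overlapped one another, but the windows of Col4a1 and Col4a2 overlap each other and share 1 GGGCGG site. The near-equal pair, Col4a1 and Col4a2, had GC contents of 74.0% and 73.7%, and Col4a5 and Col4a6 had 52.7% and 48.3%. The window of Col4a4, which is not printed, held none of these motifs and had a GC content of 63.3%. No window was available for Col4a3.

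Both minor type IV genes are X-linked, and the libraries differed in Xist, the RNA of the inactive X, with 6 counts in KAT8 cKO skin and 11891 in WT skin. Of the 470 other measured X-linked genes, 20 (4.26%) were at least 2-fold higher and 39 lower in KAT8 cKO skin, with a median log2 ratio of -0.07. With 1 library per genotype, sex and genotype cannot be told apart in the values of Col4a5, Col4a6 or any other chain. Without Col4a5 and Col4a6, 12 of 36 measured collagens were higher and 1 lower. The multiplexins, which bridge basement membranes to the matrix, were close to equal. Col15a1 had 417 counts in KAT8 cKO skin and 288 in WT skin, a ratio of 1.15 (0.99 to 1.34). Col18a1, the source of endostatin, had 103 CPM in KAT8 cKO skin and 107 CPM in WT skin, a ratio of 0.96 (0.89 to 1.03), and its log2 ratio of -0.06 was 0.09 without the TMM factor. The 8 chains had a median log2 ratio of 0.28. It was 0.79 over the 4 whose exons overlap no other gene, a selection that drops both Col4a1 and Col4a2, which overlap each other.

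Among 15 other basement membrane genes, 3 were at least 2-fold higher and 1 lower in KAT8 cKO skin, with a median log2 ratio of 0.56. Lama5, the laminin chain that anchors basal keratinocytes and vessels, had 149 CPM in KAT8 cKO skin and 49.6 CPM in WT skin (3.00-fold, 2.74 to 3.30). Lamc3 had 99 counts in KAT8 cKO skin and 14 in WT skin, and the proteoglycan gene Agrn had 197 CPM in KAT8 cKO skin and 92.7 CPM in WT skin. Markers of vessel cells, around which type IV collagen lies, had median log2 ratios below 0. Endothelial markers had a median of -0.48 with 0 of 12 past 2-fold, and summed to 400 CPM in KAT8 cKO skin and 484 CPM in WT skin. The endothelial gene Pecam1 had 67.5 CPM in KAT8 cKO skin and 84.8 CPM in WT skin, and Plvap had 94.3 CPM in KAT8 cKO skin and 83.2 CPM in WT skin. Mural cell markers had a median of -0.66 with 4 of 10 lower and 1 higher, and summed to 576 CPM in KAT8 cKO skin and 1742 CPM in WT skin. Without Des, which skeletal muscle also expresses, the other 9 summed to 291 CPM in KAT8 cKO skin and 341 CPM in WT skin. Their part in the near-equal Col4a1 and Col4a2 was not tested.

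FACIT collagens of dermis went in opposite directions. Col12a1 and Col14a1 both encode proteins that bind type I fibrils, and the first was higher and the second lower in KAT8 cKO skin. Col12a1 had 1313 counts or 90.5 CPM in KAT8 cKO skin and 515 counts or 44.7 CPM in WT skin (2.02-fold, 1.83 to 2.25). It was the chain nearest above the 2-fold line, with Col8a1, at a log2 ratio of 0.98, the nearest below. Col14a1 (chr15:55307750-55520803, plus strand) had 153 counts or 10.5 CPM in KAT8 cKO skin and 262 counts or 22.7 CPM in WT skin, so it was 2.16-fold lower (1.76 to 2.65). It was the only collagen at least 2-fold lower, with a log2 ratio of -1.04, or -0.89 and thus short of 2-fold without the TMM factor.

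The other FACIT chains were higher or too low to tell. Col16a1, a minor collagen of dermis and of the junction with the epidermis, had 1272 counts or 87.6 CPM in KAT8 cKO skin and 436 counts or 37.8 CPM in WT skin (2.32-fold, 2.08 to 2.59). Col22a1, known from muscle and tendon junctions among other places, had 79 counts in KAT8 cKO skin and 17 in WT skin (3.69-fold, 2.16 to 6.65). All 16 skeletal muscle markers were lower in KAT8 cKO skin, and the part of muscle in the Col22a1 value was not tested. An exon of Col22a1 overlaps one of Gm16308. Col20a1 had 46 counts in KAT8 cKO skin and 22 in WT skin, a ratio of 1.66 whose interval of 0.98 to 2.90 held 1. Of 5 measured FACIT chains, 3 were higher and 1 lower, and the median was the value of Col12a1. The median log2 ratio was 0.76 with Col19a1 kept in and 1.29 with the type IX chains, which are FACIT by structure, added.

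Type VI collagen was moderately higher in KAT8 cKO skin. Col6a3 had 242 CPM in KAT8 cKO skin and 143 CPM in WT skin (1.69-fold, 1.60 to 1.80), and Col6a2 had 249 CPM in KAT8 cKO skin and 163 CPM in WT skin (1.52-fold, 1.44 to 1.61). Col6a1 had 254 CPM in KAT8 cKO skin and 193 CPM in WT skin (1.32-fold, 1.25 to 1.39). These chains join into 1 molecule, and the interval of Col6a1 lay below those of Col6a2 and Col6a3, which just overlap. None of the 4 measured type VI chains passed 2-fold, and their median log2 ratio was 0.55. Col6a3 to Col6a1 per kb was 0.39 in KAT8 cKO skin (0.37 to 0.40) and 0.30 in WT skin (0.28 to 0.32). Col6a6 had 22 counts in KAT8 cKO skin and 9 in WT skin, and Col6a4 and Col6a5 had the low counts given above. The median adipocyte and muscle markers, from tissues rich in type VI, were lower in the same library as given above, and their part in these values was not tested.

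The 7 remaining chains form short networks, span the cell membrane or belong to no larger class. Of the 6 measured, 3 were higher, with a median log2 ratio of 1.11. Col28a1, a minor collagen known from peripheral nerve in mice, had 168 counts in KAT8 cKO skin and 29 in WT skin (4.60-fold, 3.09 to 7.08), second in size only to Col4a6 among measured collagens. Schwann cell markers, the glia of that nerve, were also higher, with 4 of 10 past 2-fold, a median of 0.96 and a sum of 658 CPM in KAT8 cKO skin and 332 CPM in WT skin. The part of nerve in the Col28a1 value was not tested.

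Type VIII chains, which form the hexagonal sheets of vessel walls and cornea, were both higher. Col8a2 had 227 counts in KAT8 cKO skin and 61 in WT skin (2.95-fold, 2.22 to 3.99), and Col8a1 had 981 in KAT8 cKO skin and 388 in WT skin (2.01-fold, 1.78 to 2.26). Among membrane-spanning collagens, Col23a1 had 73.9 CPM in KAT8 cKO skin and 31.0 CPM in WT skin (2.39-fold, 2.11 to 2.70). Col13a1, a membrane collagen of many cell junctions, had 70 counts in KAT8 cKO skin and 25 in WT skin (2.22-fold, 1.39 to 3.66). Col25a1 had 16 counts in KAT8 cKO skin and 10 in WT skin, with an interval that held 1.

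**Figure D5:**
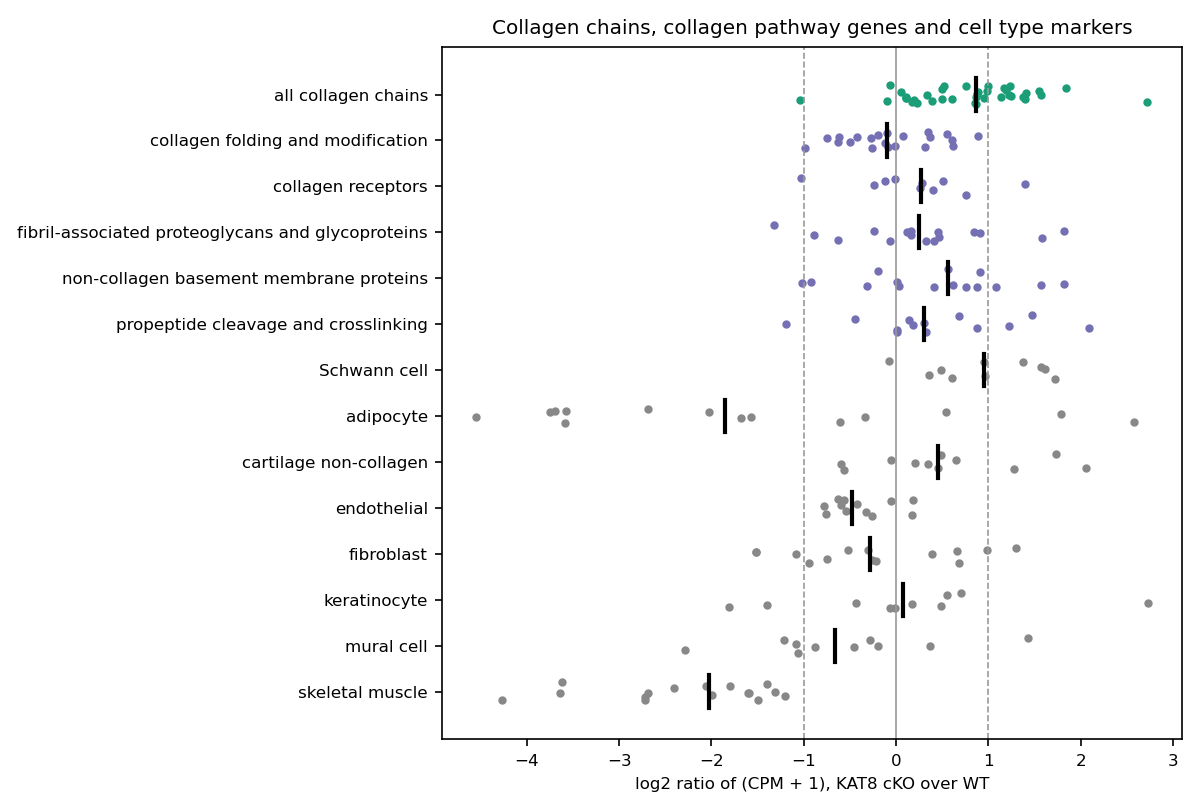
Log2 ratio of CPM + 1 (x axis, KAT8 cKO over WT) of measured genes in the collagen chains, 5 lists of collagen pathway genes and 8 lists of cell type markers. Points are genes, black bars are medians and dashed lines mark a 2-fold difference. The collagen median is 0.87, the folding and modification median -0.10, and the skeletal muscle median -2.03.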

How the data were processed

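The authors deposited raw counts by Ensembl gene, with no normalization, for 1 library per genotype. Per the submitters' processing notes, HISAT2, StringTie 1.3.0, edgeR and mm10 were used, with no step given for each. The sources used here name no counting tool, annotation release or strand setting. Where exons of 2 genes overlap, their reads may therefore be mixed, which touches 11 of the 42 chains.

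Symbols, coordinates and lengths came from GENCODE M21 (GRCm38). A symbol was found for 34267 genes, and the other 478 (0.0968% of counts in KAT8 cKO skin and 0.103% in WT skin) stayed in the totals. Counts were scaled by totals times TMM factors (edgeR 4.0.16, R 4.3.3), 1.06 for KAT8 cKO and 0.946 for WT skin, giving CPM. 1 count was 0.0689 CPM in KAT8 cKO skin and 0.0868 CPM in WT skin. Log2 ratios used CPM + 1, a filter of 1 CPM in either library and a line at 2-fold, while folds in the text divide CPM with nothing added. Without molecular identifiers, PCR copies count as reads, so intervals cover counting error only. No p-value was computed with 1 library per genotype. The ratio calculation was tested on simulated data.

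Classes are disjoint, with cartilage chains taken first. All chains were described. Of 13 other lists (177 genes), up to 4 genes with the largest ratios past 2-fold were named, or the 2 most abundant where fewer than 2 passed, and markers chosen so are printed only where a collagen value is set beside them. Some genes under this rule are not reported here. Members, classes and lists were chosen with earlier results of these data known. Alternatives were other scalings (with DESeq2 1.42.0 size factors among them), pseudocount, filters, overlaps and classes.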

Additional observations from a re-analysis of the deposited data

How the results depend on the processing

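Each direction and each side of the 2-fold line among the 38 measured chains was the same with DESeq2 size factors and with TMM computed without the 50 most abundant genes. Without the TMM factor, 6 chains crossed the line (Col14a1 left the lower side, and Col1a2, Col8a1, Col10a1, Col11a2 and Col27a1 reached the higher side), Col4a1 and Col18a1 changed sign, 0 chains were lower, and the FACIT median was 1.16. With a pseudocount of 0.1 CPM, Col8a1, Col11a2, Col13a1 and Col24a1 reached 2-fold. The fibrillar median was 0.11 with a filter of 5 CPM, 0.86 without Col5a1, whose exons overlap another gene, and 0.87 by structural class. The basement membrane median was 0.79 without overlapping genes. The FACIT median was 0.76 with no filter and 1.29 by structural class. Alternatives for the other lists and their sums, for X-linked chains and for transcript length were chosen after seeing the data. No paired analysis was possible because each genotype has 1 library. Depth limits the low chains, as the interval of Col24a1 from 1.33 to 7.51 shows.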
